A study of Mus musculus with 5 samples.

Results

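The voltage-gated sodium channel, voltage-gated calcium channel and HCN channel genes were described in ribosome-bound RNA of Drd2 neurons from the mouse central amygdala (CeA). The family was taken as every gene of the deposited table whose name starts with Scn and a digit, Cacna, Cacnb, Cacng, or Hcn and a digit, which gave 37 of 15093 genes. The rule uses gene names alone. Scn4a, Scn10a, Cacna1f, Cacna1s, Cacng6, Cacng7 and Hcn4 have no row in the table used here.

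All animals were adult Drd2-TRAP mice, in which a Drd2-Cre transgene switches on an EGFP-tagged ribosomal protein, so that ribosomes of Cre-expressing cells can be pulled down with their mRNA (translating ribosome affinity purification, TRAP). The 3 fear conditioned libraries (replicates 2, 3 and 4) came from mice that received tones paired with foot shocks. The 2 control libraries (replicates 6 and 7) came from mice that the labels call home cage. The study's text describes these controls as exposed to the tone in the training chamber without shock. The labels place collection 2 h after extinction and the text 2 h after conditioning. Each library was a pool of punches from 3 animals, centred over the CeA, and no untagged RNA was analysed here. A transgene driven by Drd2 regulatory sequence marks striatal as well as amygdala neurons, so that a punch reaching the striatum adds the same kind of ribosome to the sample.

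Neuronal excitability rests on these channels. Sodium channel pore (alpha) subunits carry the current of the action potential, and their beta subunits set gating and surface position. Calcium channel pores admit calcium on depolarization, with L-type channels linked to signalling to the nucleus, P/Q-, N- and R-type channels to transmitter release, and T-type channels to firing near rest. Alpha2delta and calcium channel beta subunits bring the L-, P/Q-, N- and R-type pores to the membrane. Most gamma subunits of the family act as TARPs, partners that traffic and tune AMPA receptors. HCN channels pass a depolarizing current on hyperpolarization and shape resting potential and dendritic integration.

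Values are in CPM, counts per 1000000 scaled to each library by the authors, and levels of different genes were compared only after division by the deposited gene length (CPM per kilobase). The libraries held 19605318 to 27937520 reads on genes, so that 3 reads, taken as the floor, correspond to 0.10 to 0.158 CPM. Reads were amplified without molecular identifiers, and this floor covers counting error only. Control replicate 7 listed 2681 genes at 0 reads and control replicate 6 listed 976, against 159 to 349 in the fear conditioned libraries. The ratio of the higher to the lower control library, with values below the floor set to it, exceeded 4 for 9 of the 36 channel genes tested (25%) and for 33.1% of all 13560 genes tested. The same ratio across the 3 fear conditioned libraries exceeded 4 for 1 channel gene (2.78%), and for 3.30% of all genes. The tissue check also separated the libraries. The summed level of 4 Drd2 neuron markers (Drd2, Adora2a, Penk and Gpr6) was 15032 to 17120.2 CPM in fear conditioned libraries and 6421 and 9284 CPM in control replicates 6 and 7, with 4 of 4 markers higher in every fear conditioned library. The 4 striatal projection neuron markers (Ppp1r1b, Pde10a and Rgs9 among them) summed to 5202 to 7895 CPM in fear conditioned libraries and to 1796 and 4665 CPM in the controls. The 6 pallial glutamatergic neuron markers summed to 47.8 to 199.6 CPM against 356 and 256 CPM, the 5 astrocyte markers to 206 to 247 against 562 and 473 CPM, the 5 oligodendrocyte markers to 1058 to 2399 against 2322 and 4831 CPM, and the 5 choroid plexus markers to 57.8 to 110.3 against 995 and 1409.5 CPM. Most of the choroid plexus sum in the controls was 1 gene, Ttr, at 913 and 1320 CPM. Of the 5 choroid plexus markers, 2 were lower in every fear conditioned library and 3 overlapped, Clic6 among them. Of the 6 CeA markers, Prkcd, Calcrl, Sst and Nts were read in every library, while Tac2 had 0 reads in control replicate 7, and the 6 summed to 155 to 291 CPM in fear conditioned and 286 and 489 CPM in control libraries. From these libraries the study reported Adora2a and Gpr6 as higher and Ttr as lower after fear conditioning. It reported Drd2 as not significantly changed. These markers are thus no independent measure of the tissue sampled. In bulk RNA, fewer cells of a type and less RNA per cell cannot be told apart. Of these sums, those of the oligodendrocyte and CeA markers overlapped between the groups and the others did not, and their part in each difference below was not tested.

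Promoter sequence is shown for 4 members whose groups did not overlap, Cacna1b and Cacna2d1 from those lower after fear conditioning and Cacnb3 and Hcn2 from those higher, because activity-regulated genes often carry cyclic AMP response elements (CRE) near their start sites. Each is the 250 bases before an annotated start (RefSeq, GRCm38.p6), on the gene's strand, with capitals marking matches of TGACG, the core of the CRE, and of the GC box GGGCGG, on either strand and with overlapping matches included. The Cacna1b window is chr2:24763153-24763402 (minus strand), that of Cacna2d1 chr5:15934441-15934690 (plus strand), that of Cacnb3, the one of its annotated starts with GC boxes, chr15:98634517-98634766 (plus strand), and that of Hcn2 chr10:79716384-79716633 (plus strand).
Cacna1b: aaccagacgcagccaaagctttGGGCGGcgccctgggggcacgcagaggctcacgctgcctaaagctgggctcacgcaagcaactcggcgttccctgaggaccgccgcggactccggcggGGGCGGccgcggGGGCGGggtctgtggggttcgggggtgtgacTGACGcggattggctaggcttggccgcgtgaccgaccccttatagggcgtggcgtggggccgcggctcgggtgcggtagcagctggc
Cacna2d1: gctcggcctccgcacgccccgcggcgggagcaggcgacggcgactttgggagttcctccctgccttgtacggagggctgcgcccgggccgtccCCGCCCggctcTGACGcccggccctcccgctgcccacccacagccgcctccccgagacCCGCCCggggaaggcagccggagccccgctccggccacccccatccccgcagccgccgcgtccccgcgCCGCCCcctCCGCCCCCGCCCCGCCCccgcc
Cacnb3: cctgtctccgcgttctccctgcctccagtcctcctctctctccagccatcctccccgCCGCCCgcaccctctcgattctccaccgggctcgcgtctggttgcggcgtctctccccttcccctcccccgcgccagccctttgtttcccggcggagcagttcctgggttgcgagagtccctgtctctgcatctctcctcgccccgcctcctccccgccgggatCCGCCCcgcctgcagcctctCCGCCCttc
Hcn2: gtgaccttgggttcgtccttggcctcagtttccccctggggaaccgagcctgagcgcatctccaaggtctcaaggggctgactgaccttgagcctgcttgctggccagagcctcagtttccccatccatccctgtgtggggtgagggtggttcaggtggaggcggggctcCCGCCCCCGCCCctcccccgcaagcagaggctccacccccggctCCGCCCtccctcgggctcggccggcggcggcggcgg
This core occurred 1 time each in the Cacna1b and Cacna2d1 windows and 0 times in those of Cacnb3 and Hcn2. It was absent from the windows of Scn2a1, Scn9a and Cacng8, which were also lower after fear conditioning. A window each of Cacna1c, Cacna1i and Cacnb2, whose groups overlapped, held it. A link between the core and the direction of change was not tested. GC boxes numbered 3 in Cacna1b, 6 in Cacna2d1, 3 in Cacnb3 and 3 in Hcn2. Over the 25 members with an entry, TGACG was in 5 of 36 start windows (13.9%), against 17.8% of all 32851 windows, and GGGCGG in 13 of 36 (36.1%) against 32.7%. The full CRE TGACGTCA, which contains TGACG, was in 0 of the 36 windows and in 1.55% of all, and the AP-1 motif TGANTCA was in 1 (Cacng5) against 6.75% of all. These are letter matches and say nothing of binding.

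Auxiliary subunits were at the top of the family. Cacng3, a TARP, averaged 156 CPM per kilobase over the 5 libraries and ranked above 94.7% to 97.9% of the listed genes of a library. Then came the auxiliary subunits Cacna2d3 (60.1 CPM per kilobase), Cacnb3 (55.8), Scn4b (51.4), Scn2b (47.9) and Cacnb1 (43.3). The order from Cacna2d3 to Cacnb1 is not fixed by these means, since each gene's range over the libraries overlapped that of the next. No sodium or calcium channel pore gene reached these levels. The highest of these pores was Scn2a1, the sodium channel alpha subunit of unmyelinated axons and axon initial segments, at 18.6 CPM per kilobase, followed by Scn8a, the alpha subunit of mature initial segments and nodes, at 13.3. Calcium channel pores lay lower still, from 0.844 CPM per kilobase for Cacna1g to 3.78 for Cacna1a. Scn7a and Scn11a averaged 0.152 CPM per kilobase each, the lowest of the family, and Scn11a, with a mean value below 1 CPM, was not tested.

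**Figure D1:**
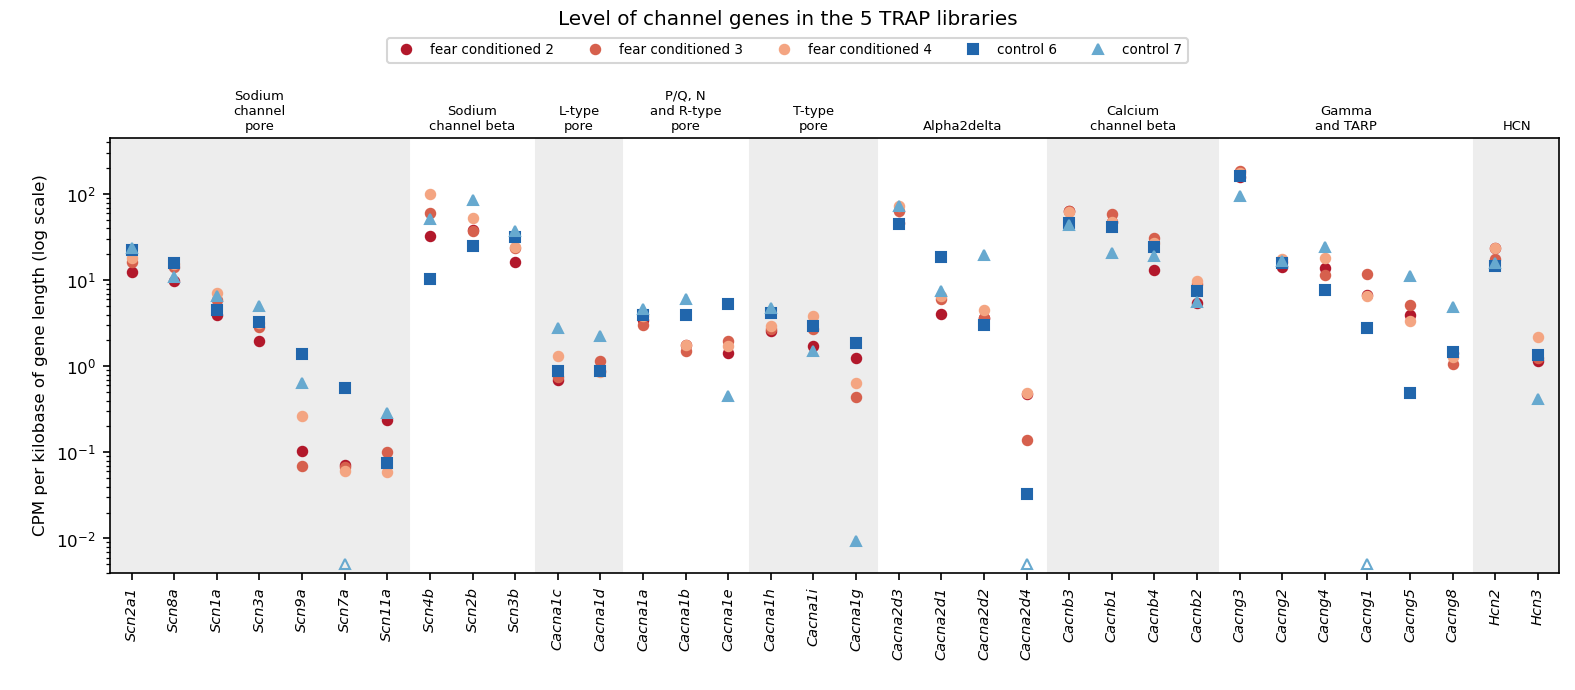
Level of channel genes in CPM per kilobase of deposited gene length (log scale), by subunit class and ordered by mean within a class. Each point is 1 library, circles are fear conditioned, squares and triangles are control replicates 6 and 7, and open symbols at the bottom are values of 0. The 2 control libraries sit far apart for Cacna1g, Cacna1e and Cacng5, while the fear conditioned libraries lie between them.

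To ask which channel genes differed with fear conditioning, the 3 fear conditioned libraries were compared with the 2 controls in limma on log2(CPM + 1), a scale that understates the change of low genes. A gene was called where its adjusted p was under 0.05 and its log2 fold change exceeded 0.5 in size. This rule called 0 of the 36 channel genes tested and 0 of all 13560 genes (0%). At an unadjusted p under 0.05, 4 members were higher (11.1%), Cacng1, Cacna2d4 and Cacnb3 among them, against 9.49% of all genes. At that level 3 members were lower (8.33%), Cacna1b, Scn9a and Scn3b, against 7.32% of all genes. The split was 2 higher and 5 lower of 37 in edgeR's quasi-likelihood test with RLE scaling. In that test 16.6% of all genes had such a p in either direction, against 16.8% in limma. All fear conditioned libraries were above both controls in 6 members (16.7%; 20.2% of all genes) and below both in 9 members (25%; 16.1% of all genes). The 6 included Cacna2d4, Cacnb1, Cacnb3, Cacng1 and Hcn2. The 9 were Scn2a1, Scn3a, Scn9a, Scn3b, Cacna1a, Cacna1b, Cacna1h, Cacna2d1 and Cacng8. The median log2 fold change of the members was 0.04 and that of all genes 0.08, and the median absolute log2 fold changes were 0.58 and 0.58. On reads recovered from the values, DESeq2 called 3 of 37 members (8.11%), Cacna1b and Scn9a among them, and 1296 of 14489 genes (8.94%). The likelihood ratio test of edgeR called 1 member (2.7%), Cacna1b, and 1115 of the genes (7.7%), whereas limma voom and the quasi-likelihood test of edgeR each called 0 of the 14489 genes. At an unadjusted p under 0.05 edgeR's quasi-likelihood test with TMM scaling gave 3 members higher and 5 lower of 37, and voom 3 higher and 4 lower. Over all genes the shares in either direction were 16.6% and 17.6%. The share of members below both controls (25% against 16.1%) was above that of all genes, and the likelihood ratio share (2.7% against 7.7%) was below it. The other limma and DESeq2 shares were close to those of all genes. The differences between the shares were not tested.

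**Figure D2:**
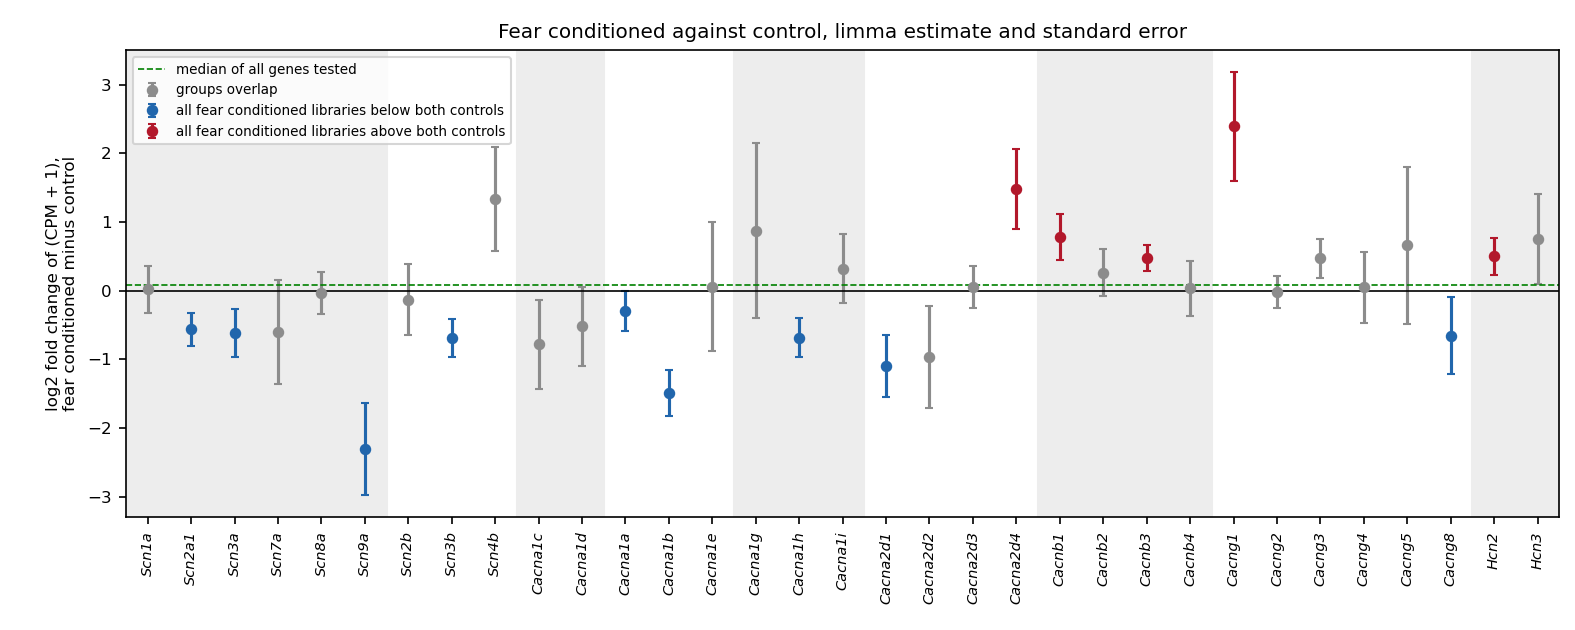
Log2 fold change of CPM + 1 (fear conditioned minus control) for channel genes tested, with the limma standard error as bars, by class in the order of the plot of levels. Red marks genes with all fear conditioned libraries above both controls, blue those below both, grey the rest, and the dashed line is the median of all genes tested, 0.08.

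Among the sodium channel pores, Scn2a1 (ENSMUSG00000075318) had 115, 148 and 167 CPM in fear conditioned replicates 2, 3 and 4, and 205 and 216 CPM in control replicates 6 and 7. Every fear conditioned library was below both controls, by a log2 fold change of -0.57 ± 0.24 (SE; limma adjusted p = 0.305). Scn9a (ENSMUSG00000075316), a pore best known from sensory neurons, had 1.37, 0.916 and 3.48 CPM after fear conditioning against 18.5 and 8.38 CPM in the controls. These are 22 to 70 reads against 555 and 159, and the groups lie well apart. Its mean was 7.0-fold higher in controls, with a log2 fold change of -2.31 ± 0.67 (SE; limma adjusted p = 0.217). The adjusted p was 0.0363 with DESeq2 and ranged from 0.00731 to 0.729 over the alternatives. Scn8a (ENSMUSG00000023033) had 108, 156 and 173 CPM after fear conditioning against 176 and 121 CPM in the controls, so that the groups overlapped, with a log2 fold change of -0.03 ± 0.30 (SE; limma adjusted p = 0.962).

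Scn2a1 and Scn8a led the pore transcripts in every library. Of the summed CPM per kilobase of the 8 pore genes, Scn2a1 gave 40.7% to 42.7% in fear conditioned libraries, and 45.1% and 50.1% in controls. Scn8a gave 33.2% to 35.9% after fear conditioning, and 32.1% and 23.4% in controls. Scn1a, the alpha subunit most abundant in parvalbumin interneurons, gave 13.5% to 15.8%, and 9.05% and 13.9%. The early-development pore Scn3a followed with 6.73% to 7.21%, and 6.60% and 10.6%. The glial and sensory Scn7a, Scn9a and Scn11a each stayed at or below 2.82% in every library. The controls differed widely for Scn7a, at 123 reads in replicate 6 and 0 in replicate 7.

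Of the sodium channel beta subunits, Scn3b (ENSMUSG00000049281), which associates with the pore without a covalent bond, had 56.4, 82.2 and 84.3 CPM after fear conditioning against 109 and 129.7 CPM in the controls. Its groups did not overlap and gave a log2 fold change of -0.69 ± 0.28 (SE; limma adjusted p = 0.290). Scn3b made up 5.22% to 6.87% of the per-kilobase beta subunit sum after fear conditioning, and 15.0% and 13.1% in controls.

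Scn4b (ENSMUSG00000046480), the beta subunit linked to resurgent sodium current and abundant in striatal projection neurons, had 160.5, 299.5 and 501 CPM after fear conditioning against 50.5 and 257 CPM in the controls. Replicate 2 of the fear conditioned group was below control replicate 7, so that the groups overlapped. Its log2 fold change was 1.33 ± 0.76 (SE; limma adjusted p = 0.416), 2.49 against control replicate 6 alone and 0.17 against control replicate 7 alone. The striatal marker sum, 1796 CPM in control replicate 6 and 4665 in control replicate 7, also differed between the controls in that direction. In fear conditioned replicates 2, 3 and 4 this sum was 5202, 7895 and 7509 CPM. Replicate 2 was thus above control replicate 7 in this sum but below it in Scn4b. A link between this sum and Scn4b was not tested. Scn2b, whose product is bound covalently to the pore, had 119 and 409.9 CPM in the controls and 180.0 to 249 CPM after fear conditioning.

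Of the presynaptic calcium channel pores, Cacna1b (ENSMUSG00000004113), which encodes the N-type pore, had 23.1, 19.7 and 23.1 CPM after fear conditioning against 51.3 and 78.4 CPM in the controls. The fear conditioned libraries were close together at 22.0 ± 1.99 CPM (SD, n = 3) and all below both controls, at 64.9 ± 19.2 (SD, n = 2). The mean was 2.95-fold higher in controls, with a log2 fold change of -1.49 ± 0.34 (SE; limma adjusted p = 0.197, equal to the smallest adjusted p of the genes tested). This value was -1.79 against control replicate 7 alone and -1.19 against control replicate 6 alone. DESeq2 gave an adjusted p of 0.00209, and the alternatives ranged from 0.000853 to 0.729, with the values above 0.6 in the fits that left out a fear conditioned library. Cacna1a (ENSMUSG00000034656), the P/Q-type pore, had 38.3, 33.6 and 42.8 CPM after fear conditioning against 43.6 and 50.7 CPM in the controls. The groups were apart by a small margin, with a log2 fold change of -0.30 ± 0.29 (SE; limma adjusted p = 0.620).

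Within this class Cacna1a took 46.8% to 52.7% of the per-kilobase sum after fear conditioning, and 29.9% and 41.6% in controls. Cacna1b took 23.2% to 26.5%, and 29.7% and 54.3%. Both shares separated the groups. Cacna1e, the R-type pore, took 21.4% to 30.1% after fear conditioning but 40.4% in control replicate 6 and 4.08% in control replicate 7, from 2016 and 108 reads.

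The L-type pores Cacna1c (ENSMUSG00000051331) and Cacna1d (ENSMUSG00000015968) were low and close to each other per kilobase. Cacna1c had 7.40, 7.91 and 13.9 CPM after fear conditioning against 9.28 and 29.8 CPM in the controls. Cacna1d had 8.25, 10.7 and 8.04 CPM after fear conditioning against 8.25 and 21.0 CPM in the controls. For both, control replicate 7 was the highest library and control replicate 6 lay within the fear conditioned range. The log2 fold changes were -0.78 (standard error 0.65, adjusted p = 0.564) for Cacna1c and -0.52 (standard error 0.58, adjusted p = 0.664) for Cacna1d, and without control replicate 7 they were 0.01 and 0.10.

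Of the T-type pores, Cacna1h (ENSMUSG00000024112) had 30.0, 31.0 and 33.6 CPM after fear conditioning against 48.3 and 54.4 CPM in the controls. Both groups were tight and did not overlap, at 31.5 ± 1.86 (SD, n = 3) and 51.3 ± 4.32 CPM (SD, n = 2). The log2 fold change was -0.69 ± 0.29 (SE; limma adjusted p = 0.300), and -0.77 and -0.60 without control replicate 6 and without control replicate 7. Cacna1i (ENSMUSG00000022416) had 17.5, 27.6 and 39.2 CPM after fear conditioning against 29.4 and 15.3 CPM in the controls, with overlapping groups and a log2 fold change of 0.32 ± 0.50 (SE; limma adjusted p = 0.774). Cacna1g had 118 to 298 reads after fear conditioning, 624 in control replicate 6 and 2 in control replicate 7.

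Among the alpha2delta subunits, to which gabapentin binds in the case of Cacna2d1 and Cacna2d2, Cacna2d3 prevailed. Cacna2d3 (ENSMUSG00000021991) had 167, 236 and 263 CPM after fear conditioning against 166 and 266 CPM in the controls, the same span in both groups, with a log2 fold change of 0.05 ± 0.31 (SE; limma adjusted p = 0.941). It made up 84.8% to 86.7% of the per-kilobase alpha2delta sum after fear conditioning, and 67.4% and 73.0% in controls. Cacna2d1 (ENSMUSG00000040118) had 34.8, 52.5 and 56.7 CPM after fear conditioning against 162 and 64.0 CPM in the controls. The groups were apart, by a wide margin only for control replicate 6. Its log2 fold change was -1.10 ± 0.46 (SE; limma adjusted p = 0.299), -1.76 against control replicate 6 alone and -0.44 against control replicate 7 alone. Cacna2d2 had the opposite split, with 19.4 CPM in control replicate 6, 125 in control replicate 7 and 23.2 to 28.8 CPM after fear conditioning.

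Cacna2d4 (ENSMUSG00000041460), best known from photoreceptors, was near the floor. It had 61, 20 and 60 reads after fear conditioning against 6 and 0 reads in the controls, or 2.89, 0.833 and 2.98 CPM against 0.200 and 0. Every fear conditioned library was above both controls. The log2 fold change on the CPM + 1 scale was 1.48 (standard error 0.58, adjusted p = 0.283).

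All 4 calcium channel beta subunits had log2 fold changes above 0, between 0.04 (Cacnb4) and 0.78 (Cacnb1), and 0 of the 4 passed the test. The value for Cacnb4 was -0.14 without control replicate 7, and -0.20 and -0.11 without fear conditioned replicates 3 and 4. It was 0.41 without fear conditioned replicate 2 and 0.21 without control replicate 6. Cacnb3 (ENSMUSG00000003352), the most abundant per kilobase, had 197, 196 and 193 CPM after fear conditioning against 143 and 137 CPM in the controls. This was the tightest pair of groups in the family, at 195 ± 1.98 (SD, n = 3) and 140.1 ± 3.98 CPM (SD, n = 2), without overlap. Their log2 fold change was 0.48 ± 0.19 (SE; limma adjusted p = 0.292), and 0.51 and 0.45 without control replicate 6 and without control replicate 7. Cacnb1 (ENSMUSG00000020882) had 236, 293 and 236 CPM after fear conditioning against 208 and 104 CPM in the controls. All fear conditioned libraries were above both controls, with a log2 fold change of 0.78 ± 0.33 (SE; limma adjusted p = 0.308), 1.28 against control replicate 7 alone and 0.29 against control replicate 6 alone. Cacnb4 had 117 to 273 CPM after fear conditioning against 218 and 171 CPM in the controls. Cacnb2 had 49.8 to 90.9 CPM, and 69.5 and 51.4 CPM.

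In the gamma group, Cacng3 (ENSMUSG00000066189) had 238, 281 and 272 CPM after fear conditioning against 247 and 146 CPM in the controls. Control replicate 6 lay within the fear conditioned range, and Cacng3 had a log2 fold change of 0.47 ± 0.28 (SE; limma adjusted p = 0.433). Cacng2 (ENSMUSG00000019146), the TARP stargazin, had 78.8, 89.8 and 98.3 CPM after fear conditioning against 87.1 and 92.5 CPM in the controls. Its groups had nearly the same mean, with a log2 fold change of -0.02 ± 0.23 (SE; limma adjusted p = 0.974). Cacng3 took 79.1% to 80.1% of the per-kilobase gamma sum after fear conditioning, and 85.2% and 62.6% in controls.

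Cacng1 (ENSMUSG00000020722), the gamma subunit of the skeletal muscle calcium channel and no TARP, had 8.44, 14.8 and 8.24 CPM after fear conditioning against 3.47 and 0 CPM in the controls. Every fear conditioned library was above both controls, from 166 to 355 reads against 104 and 0. The log2 fold change was 2.40 ± 0.80 (SE; limma adjusted p = 0.238), 1.31 against control replicate 6 alone and 3.48 against control replicate 7 alone. Of the other TARPs, Cacng5 had 99 and 1442 reads in control replicates 6 and 7 and 462 to 848 reads after fear conditioning. Cacng4 had 28.3 and 90 CPM in the controls and 42.6 to 66.7 CPM after fear conditioning. Cacng8, whose deposited length of 658 bases is the shortest of the members, had 17 to 20 reads after fear conditioning against 29 and 61 reads in the controls.

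Of the HCN channel genes, Hcn2 (ENSMUSG00000020331) had 75.5, 56.8 and 74.9 CPM after fear conditioning against 46.4 and 50.1 CPM in the controls. All fear conditioned libraries were above both controls, with a log2 fold change of 0.50 ± 0.27 (SE; limma adjusted p = 0.393). Hcn3 was low, at 4.74 to 9.19 CPM after fear conditioning against 5.54 and 1.74 CPM in the controls.

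**Figure D3:**
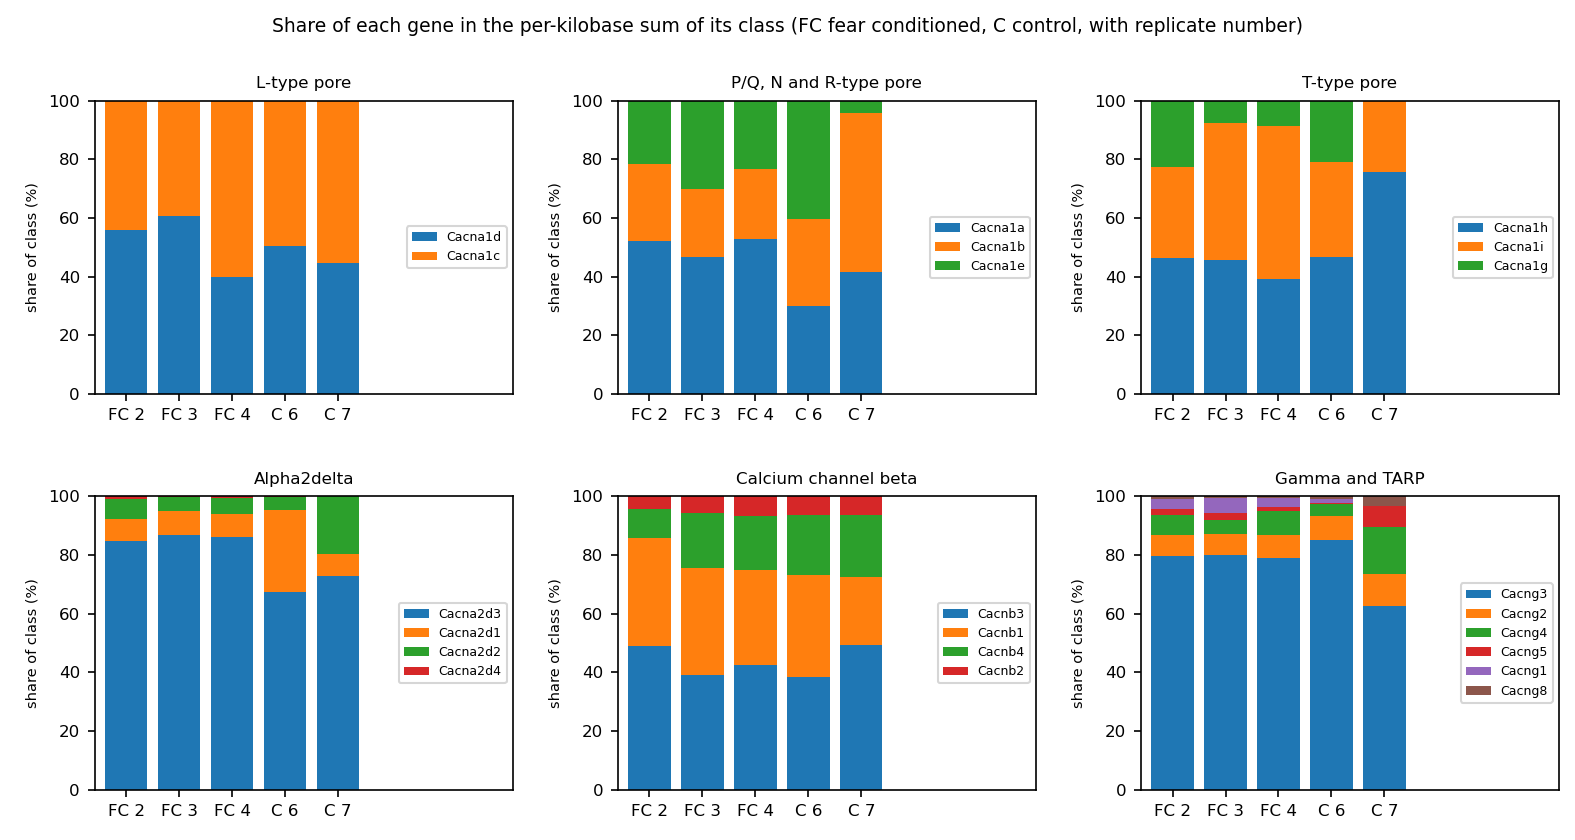
Share (%) of each gene in the summed CPM per kilobase of its subunit class, for the calcium channel and gamma classes, with 1 stacked bar for each of the 5 libraries. Cacna2d3 leads the alpha2delta subunits and Cacng3 the gamma group in all 5 libraries, while the bars of the P/Q-, N- and R-type pores differ between the 2 controls.

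Summed by class, the fear conditioned libraries were below both controls for the sodium channel pores and the P/Q-, N- and R-type pores and above both for the sodium channel beta, calcium channel beta and gamma groups. The sum of the P/Q-, N- and R-type pores averaged 6.83 ± 0.452 CPM per kilobase in the fear conditioned group against 12.1 ± 1.53 in the controls (SD over 3 and 2 libraries), a log2 difference of -0.82. Of 9 class sums compared, this one, the sodium channel beta sum (log2 difference 0.49) and the calcium channel beta sum (0.49) had p = 0.1 in a two-sided exact permutation test, the smallest p that 3 libraries against 2 allow, and an adjusted p of 0.3 over the 9 classes. The sodium channel pore sum (-0.37) and the gamma sum (0.35) had p = 0.2 in the same exact test. For the L-type (-0.68), T-type (-0.26), alpha2delta (-0.24) and HCN sums (0.20) the groups overlapped, with exact p from 0.4 to 0.8. With control replicate 7 left out, the log2 difference was 0.09 for the L-type, 0.05 for the alpha2delta and -0.31 for the HCN sum, and with control replicate 6 left out it was 0.00 for the T-type sum, so that the direction of these 4 rests on 1 control library.

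**Figure D4:**
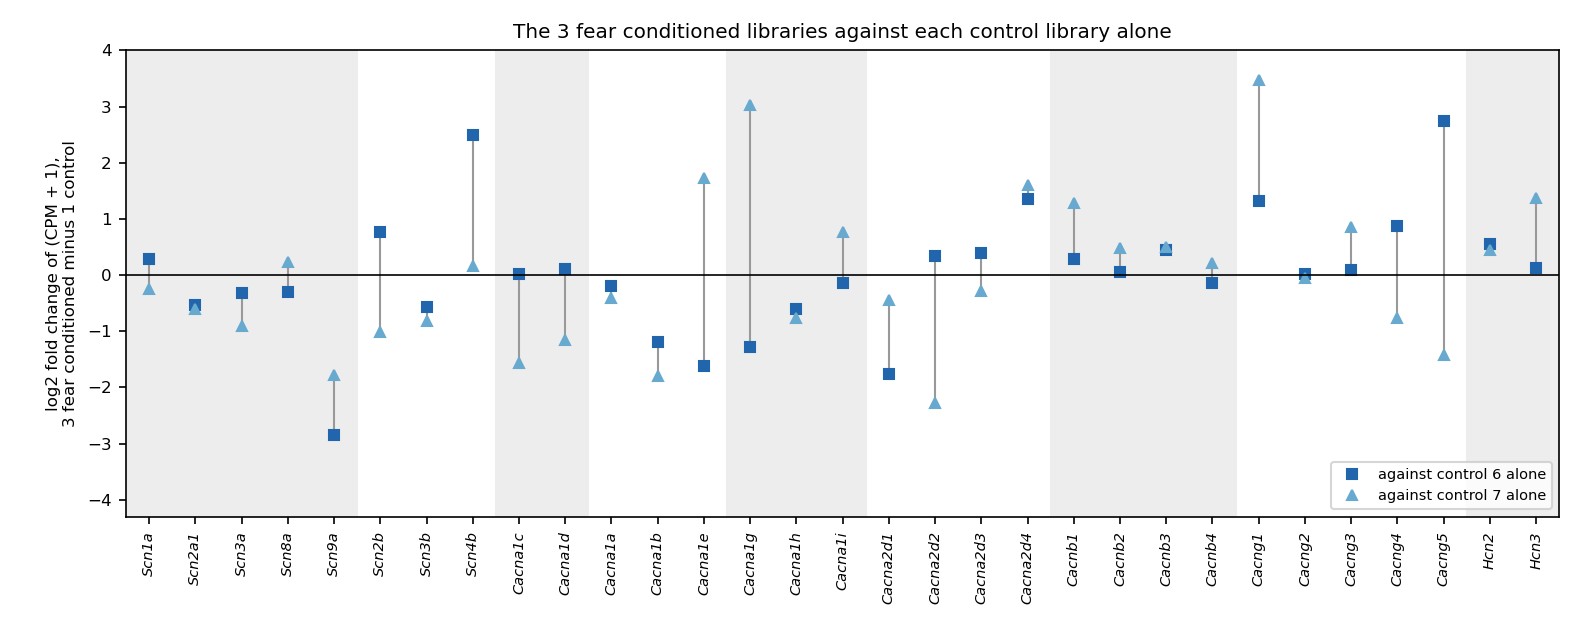
Log2 fold change of CPM + 1 of the 3 fear conditioned libraries against control replicate 6 alone (squares) and control replicate 7 alone (triangles), for members tested in both fits, which leaves out Scn7a and Cacng8. Scn2a1, Cacna1h, Cacnb3 and Hcn2 have nearly the same value against either control, while Cacna1g, Cacng5 and Cacna1e lie on opposite sides of 0.

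Since the controls were so unlike, each was also used alone. Without control replicate 6, limma called 21 of 35 members (60.0%) against 60.5% of all genes tested, and without control replicate 7 it called 9 of 35 (25.7%) against 27.5%. These fits assume that the lone control library varies like the fear conditioned group, and their counts of members are close to those of all genes. Leaving out a fear conditioned library gave 0 members called in each of the 3 fits. Of all genes tested, these fits called 0 of 13512 without replicate 2, 1 of 13601 without replicate 3 and 0 of 13524 without replicate 4.

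Of the other genes of these channel complexes (fibroblast growth factor homologous factors, axon initial segment scaffold, HCN and calcium channel partners, the sodium leak channel, RGK and Stac proteins and ubiquitin ligases), 22 were tested, with 12 log2 fold changes above 0 and 10 below and a median of 0.04 against 0.08 for all genes. None passed the limma threshold. On recovered reads DESeq2 called 6 of 23 (26.1%; 8.94% of all genes), Unc80, Nfasc, Cabp1 and Stac among them. The likelihood ratio test called 6 of 23 (7.7% of all genes), but not the same 6. Cabp1 was not called by that test, with an adjusted p of 0.0587. All fear conditioned libraries were above both controls in 3 of the 22 (13.6%; 20.2% of all genes) and below both in 7 (31.8%; 16.1% of all genes). The differences between these shares were not tested. Unc80 (ENSMUSG00000055567), a subunit of the sodium leak channel complex, had 81.6, 80.5 and 98.5 CPM after fear conditioning against 223 and 163 CPM in the controls, with a log2 fold change of -1.13 ± 0.25 (SE; limma adjusted p = 0.197). Nfasc (ENSMUSG00000026442), encoding neurofascin of the axon initial segment and, in glia, of the paranode, had 47.4, 40.4 and 55.6 CPM after fear conditioning against 94.2 and 128 CPM in the controls, with a log2 fold change of -1.20 ± 0.28 (SE; limma adjusted p = 0.197). The oligodendrocyte marker sum was also higher in both controls than in 2 of the 3 fear conditioned libraries. In fear conditioned replicate 4 it was 2399 CPM, above the 2322 CPM of control replicate 6, while Nfasc was lower there. A link between this sum and Nfasc was not tested. Cabp1 (ENSMUSG00000029544), a calcium-binding regulator of calcium channel inactivation, was apart in the other direction, with 104, 93.7 and 76.7 CPM after fear conditioning against 45.5 and 13.6 CPM in the controls, a log2 fold change of 1.81 ± 0.51 (SE; limma adjusted p = 0.216). Stac (ENSMUSG00000032502), whose product binds L-type channels, had 42, 32 and 53 reads under fear conditioning against 0 in each control. Its log2 fold change on the CPM + 1 scale was 1.55 ± 0.50 (SE; limma adjusted p = 0.231). The fear conditioned mean was 15.4-fold a floor of 3 reads per control library, and this floor covers counting error only.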

How the data were processed

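Ribosome-bound polyA RNA was measured in 5 libraries, each a separate pool of 3 animals, and p-values measure the spread between these pools. Groups were taken from the labels. Libraries were made from small amounts of RNA with a SMARTer kit. The authors deposited 1 normalized signal per gene and library, in CPM of an effective library size, with a gene length. The study's methods call the software Tuxedo DESeq, and the submitters' processing notes name DESeq and mm8. The aligner, annotation, versions and use of strand are not given in the sources used here, so overlapping and antisense genes, and paralogs such as the neighbouring sodium channel pores, may share reads. All deposited values (100%) were whole multiples of 1 read within 0.01, and these reads were recovered.

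The members and lists were chosen with earlier results of these data known. Genes with a mean of at least 1 CPM (13560) were fitted with limma 3.58.1 (lmFit, eBayes with trend) on log2(value + 1), two-sided, with Benjamini-Hochberg adjustment over all genes tested. A call needed adjusted p below 0.05 and a log2 fold change above 0.5 in size. For class sums, the absolute difference in mean log2 values was tested by exact permutation, two-sided, over all splits. Full values are given for the 2 highest members of each class per kilobase and, among members whose groups did not overlap, the 5 with the smallest p in each direction; of the other complex genes, the 2 with the smallest p in each direction are named. Results for a few single genes are not reported here, though these genes count in totals and sums.

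Alternatives were a pseudocount of 0.1, quantile normalization, no filter or a minimum of 1 CPM in each library, an adjusted p of 0.1, calls without the fold cutoff, single libraries left out, class sums without length, and edgeR 4.0.16 (quasi-likelihood with TMM or RLE, likelihood ratio), DESeq2 1.42.0 and limma voom on recovered reads. The fits were tested on simulated data. The markers of Drd1a neurons, interneurons, oligodendrocyte precursors, microglia and endothelium summed to 165 to 342, 21.9 to 48.8, 10.5 to 17.7, 33.6 to 58.6 and 3.75 to 20.1 CPM in fear conditioned libraries, and to 103 and 99.7, 74.1 and 48.9, 42.3 and 27.6, 73.9 and 49.7, and 18.2 and 10.4 CPM in control replicates 6 and 7. Gene identifiers are those of the table. Promoter windows came from RefSeq (GRCm38.p6) and were matched by symbol, Scn2a1 as Scn2a. Scripts ran in Python 3.11.15 (pandas 2.3.3, numpy 2.4.6, matplotlib 3.10.9, scipy 1.17.1) and R 4.3.3.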

Additional observations from a re-analysis of the deposited data

How the results depend on the processing

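The number of members past the limma threshold, 0, was 3 with DESeq2, 1 (Cacna1b) with edgeR's likelihood ratio test (2.7% of members, 7.7% of all genes), and 0 to 21 with each library left out in turn. It was 21 without control replicate 6 (60.5% of all genes called) and 9 without control replicate 7 (27.5% of all genes called). The other alternatives gave 0 members and also 0 of all genes. The number at an unadjusted p under 0.05 and higher, 4, was 1 with a minimum of 1 CPM in each library, 2 with quantile normalization, with RLE or with the likelihood ratio test, and 1 to 11 with a library left out. The number lower, 3, was 5 with edgeR's quasi-likelihood test under either scaling, 7 with DESeq2, and 1 to 12 with a library left out. Over all genes, the share at an unadjusted p under 0.05 in either direction was 16.8% in the main fit and 21.7% with DESeq2. It was 6.51% to 7.84% with a fear conditioned library left out, and it rose with either control left out. The higher counts of members thus came with higher shares of all genes. Members whose groups did not overlap numbered 5 to 13 higher and 9 to 16 lower with a library left out. No shares of all genes are given here for these ranges, so they show nothing particular to the channel genes. The median log2 fold change of all genes, 0.08, was -0.04 with TMM, -0.08 with RLE, 0.25 with voom and 0.16 with a pseudocount of 0.1. No paired analysis was possible because the groups share no replicate number.

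Of the 20 members given in full, 6 changed sign under an alternative. Cacna2d3 was -0.00237 with RLE and -0.00235 with DESeq2, and Cacng2 was 0.0478 with quantile normalization. With a library left out, the log2 fold change ranged from -0.30 to 0.23 for Scn8a, -1.57 to 0.0105 for Cacna1c, -1.15 to 0.10 for Cacna1d, -0.13 to 0.77 for Cacna1i, -0.29 to 0.39 for Cacna2d3 and -0.0924 to 0.0650 for Cacng2. The class sums ranged from -1.44 to 0.0858 for the L-type, -0.52 to 0.00168 for the T-type, -0.52 to 0.0464 for the alpha2delta and -0.31 to 0.70 for the HCN genes. The cause was not tested. With 2 unlike controls, the main fit called 0 of all 13560 genes, not even Ttr at a log2 fold change of -8.25. The lack of calls among the channel genes thus excludes neither small nor large differences. Genes near the floor of 3 reads, such as Cacna2d4, Scn7a and Scn11a, rest on few reads.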
